A study of Mus musculus with 13 samples.

Results

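The step from haemangioblast to haemogenic endothelium was examined in wild-type mouse embryonic stem (ES) cells differentiated in culture, as the change in mRNA between Flk-1+ cells and the first haemogenic endothelium, HE1. Of the 13 RNAseq libraries of the study, 5 were used, 3 of WT Flk-1+ cells and 2 of WT HE1. Genes entered where the locus was longer than 200 bp and FPKM, the fragments of a gene scaled to its length and to all mapped fragments, was at least 1 in at least 2 of these 5 libraries. This left 11990 of the 42236 genes with a locus of that length. WT cells of both stages came from the single CCB ES cell line, so the libraries do not repeat the line. ES cells had been kept on mouse embryonic fibroblasts, which were removed by passage before differentiation. Flk-1+ cells were taken from embryoid bodies by magnetic sorting with a Flk-1 antibody. HE1 cells were sorted by flow cytometry as Tie2+, Kit+ and CD41-. They arose from Flk-1+ cells grown in blast culture with vascular endothelial growth factor, interleukin-6 (IL-6) and medium conditioned by the D4T endothelial line. The other 8 libraries, from Lmo2-/- and Tal1-/- cells, only helped to estimate the spread between libraries.

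Haemangioblasts are mesodermal progenitors that carry Flk-1, a receptor for vascular endothelial growth factor (VEGF) encoded by Kdr, and can give rise to endothelial, blood and smooth muscle cells. They descend from the primitive streak, where Wnt, Nodal, BMP and FGF signals act and T-box factors such as T and Eomes are made. Haemogenic endothelium is endothelium from which blood cells bud, under factors such as RUNX1, TAL1, LMO2, GATA2 and the ETS family. It joins its cells through VE-cadherin and PECAM1 and rests on a basement membrane.

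The files give no fragment counts, and of the depth only a minimum of reads per library is stated by the study. The FPKM worth of 1 fragment, read from the spacing of low values, was 0.611 to 1 in the Flk-1+ libraries and 1.57 and 1.37 in the HE1 libraries, relative to Flk-1+ library 0. Of the tested genes, 200 to 382 were listed at 0 in a Flk-1+ library, against 1358 and 921 in HE1 libraries 0 and 1. Pearson correlations of log2(FPKM + 1) were 0.827 to 0.894 within Flk-1+ cells, 0.852 between the HE1 libraries, and 0.632 to 0.753 between the stages. Expression summed over the marker list of haemogenic endothelium was 26.1 to 61.4 FPKM in Flk-1+ cells and 1211 and 1286 FPKM in HE1. This list holds Tek and Kit, by whose proteins HE1 was sorted, and other genes of endothelium in general such as Cdh5. Its member Runx1, given below, went the other way and was lower in both HE1 libraries, without a call. Markers of Flk-1+ mesoderm summed to 348 to 720.0 FPKM in Flk-1+ cells and 257 to 280.1 FPKM in HE1, where T, Mixl1 and Mesp1 were listed at 0. Kdr, whose levels are given below, made up most of the HE1 sum. The sums over markers of smooth muscle and of fibroblasts were higher in HE1, though not every marker was, as given beside the contractile genes below. Markers of white cells and platelets summed to 4.86 to 8.25 FPKM in Flk-1+ cells and 15.6 to 22.8 FPKM in HE1, with Ptprc, Pf4 and Gp9 listed at 0 in every library. This list holds Itga2b, given below with the sorted proteins, which made up a large part of the HE1 sum. Of the 11 members with a locus of their own, 6 were listed at 0 in both HE1 libraries. Markers of red cells summed to 1.96 to 4.22 FPKM in Flk-1+ cells and 0.841 to 8.60 FPKM in HE1, with Hbb-y, Hba-x, Hba-a1 and Hba-a2 at 0 in every library. All 6 pluripotency markers were listed at 0 in HE1. Lmo2 was at 22.8, 30.8 and 21.6 FPKM in Flk-1+ cells and 4.3 and 20.6 FPKM in the HE1 libraries labelled WT, a range that does not separate them from the HE1 libraries labelled Lmo2-/-, so the genotype of HE1 rests on the labels.

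The sorted proteins were read as a description, because the sort chose the cells by them. Tek, which encodes Tie2, was at 2.27, 0.692 and 1.37 FPKM in Flk-1+ cells and 121 and 124 FPKM in HE1. Kit, the receptor for stem cell factor, was at 3.96, 2.67 and 2.11 FPKM in Flk-1+ cells and 59.8 and 42.4 FPKM in HE1. In both genes every HE1 library lay above every Flk-1+ library, where 47.1% of all genes tested (5648) did not overlap between the stages in either direction. Kdr was at 252, 100.2 and 115 FPKM in Flk-1+ cells and 236 and 275 FPKM in HE1, and here Flk-1+ library 0 lay between the HE1 libraries. Itga2b, which encodes the CD41 that HE1 cells were selected to lack at the surface, was at 1.59, 5.54 and 3.79 FPKM in Flk-1+ cells and 15.4 and 10.4 FPKM in HE1, with HE1 above the Flk-1+ libraries. The exact permutation test used doubles the smaller tail. With 3 against 2 libraries it cannot give a two-sided p below 0.2, the value for Tek, Kit and Itga2b, and it gave 0.4 for Kdr.

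Between Flk-1+ cells and HE1, 1026 genes differed at an adjusted p below 0.05 with a mean above 10 FPKM in at least 1 stage, which is 8.56% of the genes tested. Of these, 883 (7.36%) were higher in HE1 and 143 (1.19%) were lower, so 86.1% of the calls were rises. The libraries of the stages did not overlap in any called gene. Differences are given as HE1 minus Flk-1+ cells on the log2(FPKM + 1) scale with the standard error, and understate the change of genes with low FPKM. The median difference of all tested genes was 0.20, and levels in whole populations do not tell fewer cells of a type from less RNA per cell. Without HE1 library 0, 355 genes were called (291 higher, 64 lower), without HE1 library 1 the calls were 474 (382 and 92), without Flk-1+ library 1 they were 565 (483 and 82) and without Flk-1+ library 2 they were 642 (527 and 115). Where the loss of 1 library ended the call of a named gene, that library is given with its group and number (Flk-1+ 0, 1 or 2, HE1 0 or 1).

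The balance of rises and falls moved with the scaling. After quantile normalisation 505 genes were higher and 297 lower (63.0% rises, median difference -0.04). With all libraries set to a common median, 544 were higher and 244 lower (69.0% rises, median -0.10). Differences also moved with gene length, taken as the exonic length of the 10903 tested genes with a single value (90.9%). In 5 groups of equal size from short to long, the median difference was -0.18, 0.06, 0.18, 0.36 and 0.59, the last group starting at 7684 bp. The share of genes called higher went from 1.97% to 15.7% over the same groups, and the share called lower lay between 0.735% and 1.42%. Within the Flk-1+ cells, library 0 minus the mean of libraries 1 and 2 followed length in the same order, with medians from -0.13 to 0.43, while HE1 library 0 minus library 1 gave -0.01 to 0.11. With a common median set within each of 10 groups of genes by length, an alternative chosen after seeing the data, 451 genes were higher and 217 lower (67.5% rises, median -0.12). The part of gene length in any single difference was not tested. Named calls that ended under any of these 3 scalings are given with the scaling, as are list counts that moved by over 1.5 times or gained falls.

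**Figure D1:**
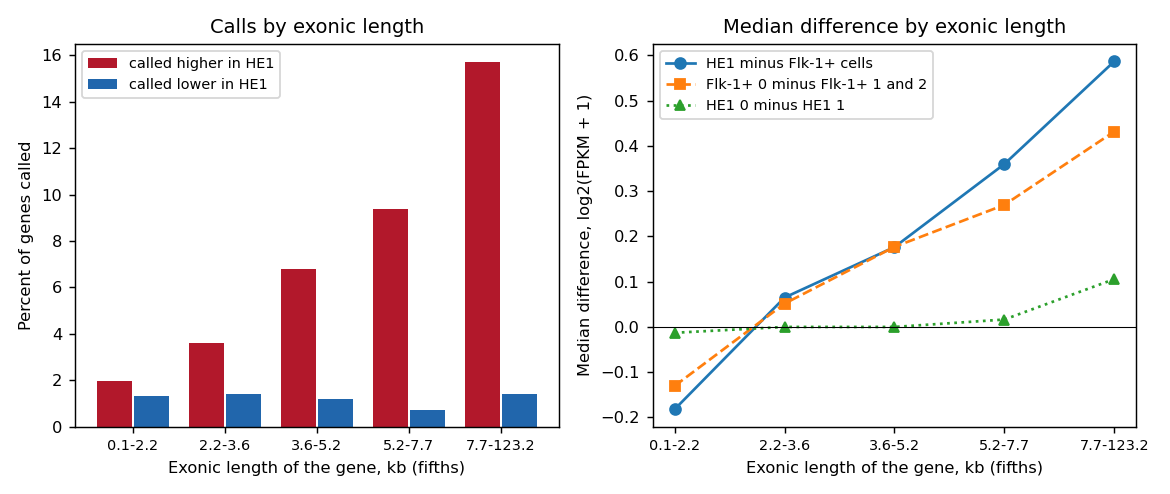
Calls and median differences by exonic gene length, in 5 groups of equal size of the 10903 tested genes with a single exonic length (x axis, kb). Left, the percent of genes called higher or lower in HE1; right, the median difference in log2(FPKM + 1) between HE1 and Flk-1+ cells, between Flk-1+ library 0 and the other Flk-1+ libraries, and between the HE1 libraries. Calls of rises went from 1.97% to 15.7% with length, and Flk-1+ library 0 differed from its own group in the same order of lengths.

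Endothelial surface genes were among the largest rises. Cd93, a C-type lectin of endothelial cells, was at 1.04, 0.68 and 0.54 FPKM in Flk-1+ cells and 192 and 186 FPKM in HE1 (log2 difference 6.77 ± 0.40, adjusted p = 3.10e-06). Cdh5 (chr8:104101625-104144511, plus strand, GRCm38), which encodes VE-cadherin, was at 5.48, 3.32 and 1.99 FPKM in Flk-1+ cells and 452 and 423 FPKM in HE1 (log2 difference 6.65 ± 0.44, adjusted p = 4.63e-06). Pecam1, the junction protein PECAM1 or CD31, was at 1.58, 0.734 and 2.28 FPKM in Flk-1+ cells and 109 and 124 FPKM in HE1 (log2 difference 5.58 ± 0.63, adjusted p = 0.000151). These genes went from a few FPKM or less to more than 100 FPKM, with a narrow spread between the HE1 libraries. The other genes among the 10 largest rises were Acta2, Tek, Flrt2, Calcrl, the actin-binding adaptor gene Afap1l1 (0.336, 0.359 and 0.87 against 73.8 and 58.4 FPKM), the flavin monooxygenase gene Fmo1 (0, 3.32 and 1.72 against 91 and 109 FPKM) and Arhgap31, a GTPase-activating protein for Rac and Cdc42 (3.21, 0.692 and 1.11 against 110.2 and 94.6 FPKM). Of 31 tested endothelial surface and junction genes 19 (61.3%) rose, none fell, and the median difference was 3.04. Cd34, a sialomucin of endothelium and blood progenitors, rose from 0.588, 0.12 and 0.423 FPKM to 69.6 and 38.9 FPKM. Ptprb, the phosphatase VE-PTP that acts on VE-cadherin and Tie2, rose from 3.22, 1.56 and 1.37 FPKM to 106 and 98.2 FPKM. Nos3, the endothelial nitric oxide synthase, and Thbd, the anticoagulant receptor thrombomodulin, rose with differences of 4.39 ± 0.41 and 4.3 ± 0.55 (adjusted p = 3.57e-05 and 0.000336). Tight junction genes were among the rises, as Tjp1 went from 56.9, 35.2 and 56.4 FPKM to 340.3 and 313 FPKM. Emcn, an endothelial sialomucin, was listed at 0 in all Flk-1+ libraries and at 7.84 and 8.02 FPKM in HE1 (adjusted p = 4.69e-05), below the 10 FPKM that a call needs. Podxl, another sialomucin, was already at 65, 55 and 43.5 FPKM in Flk-1+ cells and at 65.3 and 56.3 FPKM in HE1 (adjusted p = 0.864). Over the leave-one-out fits and the scalings, 16 to 19 of the list were called higher and none lower.

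**Figure D2:**
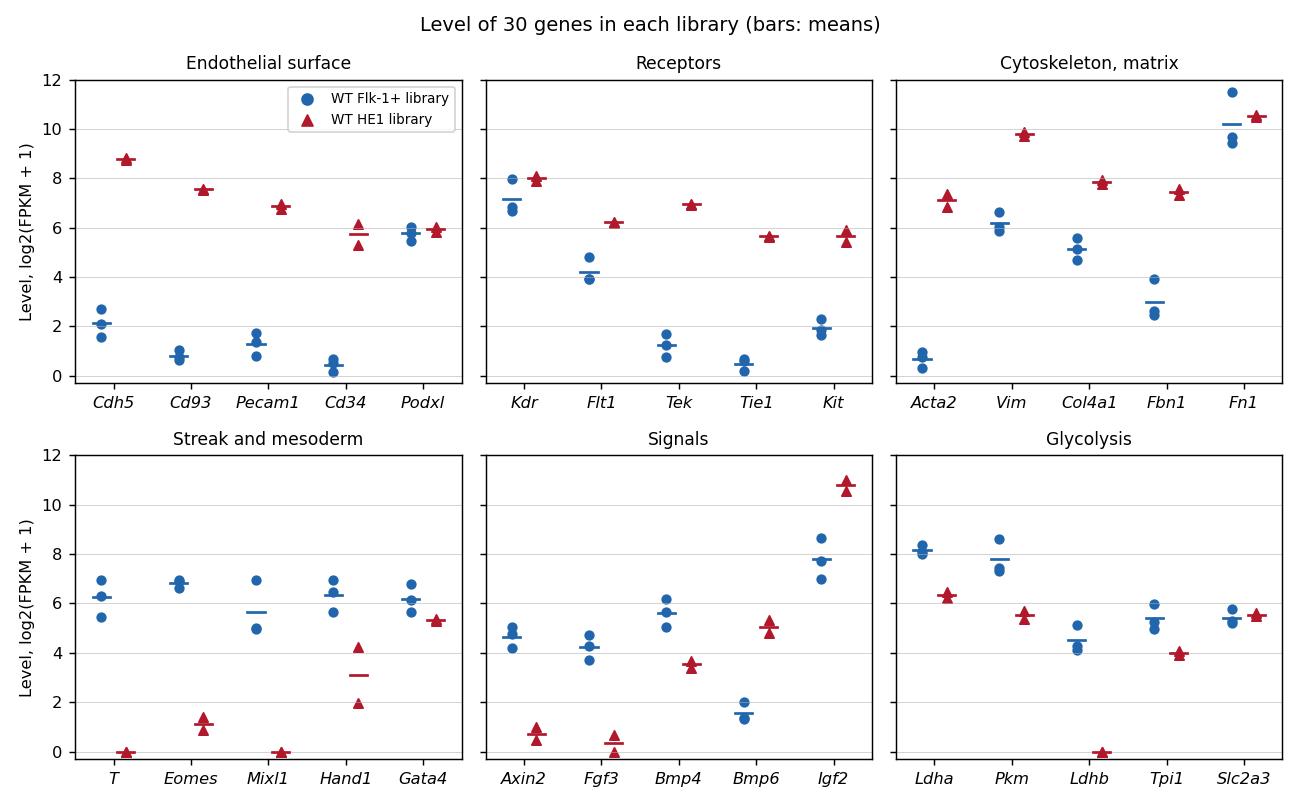
Level of 30 genes in each WT library in log2(FPKM + 1), in panels of 5 genes by role. Circles are Flk-1+ libraries, triangles are HE1 libraries and bars are group means; Cdh5 lies at 1.99 to 5.48 FPKM in Flk-1+ cells and at 452 and 423 FPKM in HE1, whereas Kdr, Podxl and Fn1 overlap between the stages.

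Receptors for vascular growth factors rose as well, on top of a Kdr level that was high from the start. Of 11 tested VEGF, TIE, KIT and PDGF genes outside the sorted ones 5 (45.5%) rose and none fell. Tie1, the orphan partner of Tie2, was at 0.517, 0.61 and 0.149 FPKM in Flk-1+ cells and 49.9 and 48.5 FPKM in HE1 (log2 difference 5.15 ± 0.45, adjusted p = 2.55e-05). Flt1, the VEGF receptor that also acts as a decoy, was at 27, 14.4 and 14.1 FPKM in Flk-1+ cells and 72.7 and 75.2 FPKM in HE1 (log2 difference 2.0 ± 0.39, adjusted p = 0.00473). Pdgfb, the ligand by which endothelium recruits mural cells, was at 3.84, 2.19 and 1.97 FPKM in Flk-1+ cells and 49.8 and 44.5 FPKM in HE1 (log2 difference 3.75 ± 0.60, adjusted p = 0.00154). Each of the 3 was higher in both HE1 libraries than in any Flk-1+ library, as was every gene called higher. Flt4, the lymphatic VEGF receptor, and the co-receptor gene Nrp2 also rose, by 1.93 and 1.96 on the log2 scale. The ligand Vegfa was at 18, 93.8 and 39.7 FPKM in Flk-1+ cells and 29.9 and 72.2 FPKM in HE1, with overlapping libraries, and Vegfb likewise stayed between 8.94 and 16.7 FPKM. Calls were lost for Flt1 without HE1 0 (adjusted p = 0.0501), Flt4 without Flk-1+ 1 or 2 or HE1 0 or 1 (adjusted p up to 0.144) and Nrp2 without Flk-1+ 1 or 2 or HE1 0 or 1 (adjusted p up to 0.172), which left 2 rises without HE1 0 and 3 without HE1 1, Flk-1+ 1 or Flk-1+ 2. They were also lost for Flt4 under quantile and length scaling (adjusted p up to 0.0775) and Nrp2 under quantile, common-median and length scaling (adjusted p up to 0.169), with 3 rises under quantile and length scaling.

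Genes of small-molecule and peptide signalling in vessels rose in 5 of 9 (55.6%) tested members, with a median difference of 2.81. Calcrl, the receptor for adrenomedullin, was at 4.51, 0.941 and 3.8 FPKM in Flk-1+ cells and 133 and 193 FPKM in HE1 (log2 difference 5.44 ± 0.53, adjusted p = 4.69e-05). S1pr1, the main sphingosine-1-phosphate (S1P) receptor of endothelium, was at 5.54, 2.0 and 1.28 FPKM in Flk-1+ cells and 66.6 and 59.6 FPKM in HE1 (log2 difference 4.17 ± 0.54, adjusted p = 0.000362), and Spns2, the transporter that exports S1P from endothelial cells, was at 1.04, 0.0622 and 0.136 FPKM in Flk-1+ cells and 25.9 and 20.8 FPKM in HE1 (log2 difference 4.17 ± 0.46, adjusted p = 0.000124). The S1P receptor and its exporter were thus both low before and present after the step. Edn1, the precursor of endothelin 1, was listed at 0 in Flk-1+ cells and at 8.72 and 20.3 FPKM in HE1 (adjusted p = 0.00149), and Ece1, which processes it, went from 15.4, 21.9 and 6.51 FPKM to 109 and 88.2 FPKM. Aplnr, the apelin receptor, was at 94.2, 28.7 and 36.2 FPKM in Flk-1+ cells and 79.3 and 92.3 FPKM in HE1 with overlapping libraries (adjusted p = 0.229). S1pr2, another S1P receptor, was below 6 FPKM in every library. Calls were lost for Edn1 without HE1 1 (on the FPKM criterion) and Ece1 without Flk-1+ 2 or HE1 0 or 1 (adjusted p up to 0.144), and 3 rises were left without HE1 1.

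Of 15 tested transcription factors of the ETS family 9 (60.0%) rose and 1 fell. Ets1 was at 13.2, 10.6 and 9.0 FPKM in Flk-1+ cells and 112 and 127 FPKM in HE1 (log2 difference 3.35 ± 0.37, adjusted p = 0.000119). Fli1 was at 14, 11.5 and 9.62 FPKM in Flk-1+ cells and 72 and 79.6 FPKM in HE1 (log2 difference 2.61 ± 0.40, adjusted p = 0.00101), and Erg was at 3.34, 22.4 and 11.1 FPKM in Flk-1+ cells and 123 and 104 FPKM in HE1 (log2 difference 3.41 ± 0.80, adjusted p = 0.0148). Erg, Fli1 and Ets1 are ETS activators of endothelial and blood genes, and all 3 were already transcribed in Flk-1+ cells. Elk3, a ternary complex factor, and Ets2 rose with differences of 3.6 ± 0.57 and 3.33 ± 0.47. Etv5, an ETS gene induced by FGF, fell from 20.3, 7.2 and 7.82 FPKM to 0.762 and 2.16 FPKM (log2 difference -2.29 ± 0.49, adjusted p = 0.00823), and its relative Etv4 was at 6.2, 17.2 and 5.2 FPKM in Flk-1+ cells and 2.61 and 0.416 FPKM in HE1 (adjusted p = 0.0594). Etv2, the ETS factor that starts the vascular programme in mesoderm, was at 11, 8.47 and 6.24 FPKM in Flk-1+ cells and 2.32 and 1.36 FPKM in HE1, which missed the threshold (adjusted p = 0.0559). Gabpa, a widely expressed ETS factor, was at 34.8, 25.9 and 25.9 FPKM against 35.2 and 35.7 FPKM. The rises were 4 without either HE1 library, 5 without Flk-1+ 1 and 6 under the length scaling. The calls that ended were those of Erg without HE1 0 or 1 (adjusted p up to 0.125) and Etv5 without Flk-1+ 0 or HE1 0 (adjusted p up to 0.117), and with a pseudocount of 0.1 that of Erg (0.16).

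The SOXF genes, which act with Notch in arterial and haemogenic endothelium, rose in all 3 members tested. Sox7 was at 26, 11.3 and 6.95 FPKM in Flk-1+ cells and 202 and 159 FPKM in HE1 (log2 difference 3.7 ± 0.68, adjusted p = 0.00367). Sox18 was at 0.306, 0.373 and 0.397 FPKM in Flk-1+ cells and 35.9 and 18.3 FPKM in HE1 (log2 difference 4.3 ± 0.61, adjusted p = 0.000623) and Sox17 at 1.82, 0.452 and 1.49 FPKM in Flk-1+ cells and 6.7 and 18.5 FPKM in HE1 (log2 difference 2.5 ± 0.62, adjusted p = 0.0202). Their levels differed, since Sox7 was present before the step and Sox18 was below 0.4 FPKM. Notch4, the endothelial Notch receptor, rose from 0.988, 3.55 and 2.36 FPKM to 43.9 and 28.4 FPKM (log2 difference 3.54 ± 0.60, adjusted p = 0.00199). Notch3, a receptor of mural cells, fell from 27, 39.2 and 23.9 FPKM to 10.9 and 8.03 FPKM (log2 difference -1.55 ± 0.42, adjusted p = 0.0297). Dll3, an antagonist of Notch signalling in presomitic mesoderm, was at 23.7, 12 and 8.98 FPKM in Flk-1+ cells and listed at 0 in HE1 (adjusted p = 0.000484). Notch1 was at 72.7, 19 and 16 FPKM in Flk-1+ cells and 142 and 90.8 FPKM in HE1 (adjusted p = 0.0953), and Rbpj, the DNA-binding partner of all Notch receptors, was at 7.05, 8.2 and 7.36 FPKM against 12.8 and 13.5 FPKM (adjusted p = 0.236). Over the 18 tested genes of the list, 4 rose and 2 fell. Calls ended for Sox7 without HE1 0 (adjusted p = 0.0553), Sox17 without Flk-1+ 1 or HE1 1 (adjusted p up to 0.17) and Notch3 without Flk-1+ 1 or 2 or HE1 0 or 1 (adjusted p up to 0.175), and for Sox17 under length scaling (adjusted p = 0.0836). Each of the 3 scalings gave 3 falls.

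Of 30 tested factors of the haematopoietic programme 26 were not called, as were 10964 of all 11990 genes tested. The others, 4 (13.3%), rose, against 7.36% of all genes tested, and none fell. The median difference of 0.23 turned to -0.16, -0.12 and -0.14 under quantile, common-median and length scaling, where 3 rose each time and 1, 1 and 2 fell. Tal1, the partner of LMO2, was at 37.4, 25.6 and 22 FPKM in Flk-1+ cells and 37.6 and 27.8 FPKM in HE1. Gata2 was at 31.4, 12.6 and 6.93 FPKM in Flk-1+ cells and 31 and 8.95 FPKM in HE1, and Runx1, the factor of the endothelial-to-haematopoietic transition, was at 17.2, 10.8 and 8.15 FPKM in Flk-1+ cells and 5.91 and 5.42 FPKM in HE1. Adjusted p was 0.841 for Tal1, 0.874 for Gata2, 0.215 for Runx1 and 0.428 for Lmo2. Tal1 and Gata2 overlapped between the stages, whereas both HE1 libraries had less Runx1 than any Flk-1+ library. Ldb1, the adaptor that LMO2 bridges to TAL1, was at 34.6, 99.6 and 35.5 FPKM in Flk-1+ cells and 18.6 and 16 FPKM in HE1, and Tcf12, an E protein that pairs with TAL1, was at 54.8, 37.7 and 25.6 FPKM in Flk-1+ cells and 62.2 and 61.6 FPKM in HE1 (adjusted p = 0.0979 and 0.256). Lyl1, a relative of Tal1, was at 0.409, 0.999 and 0.118 FPKM in Flk-1+ cells and 4.49 and 5.01 FPKM in HE1 (adjusted p = 0.005) and stayed below the 10 FPKM criterion. Hhex was at 6.12, 4.79 and 4.23 FPKM in Flk-1+ cells and 8.2 and 20 FPKM in HE1 (adjusted p = 0.141), and the later blood factors Gfi1b, Nfe2 and Gata1 were below 3 FPKM in every library. The 4 rises were Mecom, which encodes the stem cell factor EVI1, from 0.378, 1.92 and 0.30 FPKM to 36.9 and 37.3 FPKM (log2 difference 4.46 ± 0.60, adjusted p = 0.000437), Ldb2, the second LIM-binding adaptor gene, from 1.81, 3.22 and 2.06 FPKM to 76.5 and 40.9 FPKM (log2 difference 4.11 ± 0.79, adjusted p = 0.00457), Nfatc1, a calcium-responsive factor of endocardial cells, from 12.2, 6.15 and 5.17 FPKM to 56.8 and 43.7 FPKM (log2 difference 2.61 ± 0.48, adjusted p = 0.00338), and the E protein gene Tcf4. Calls ended for Tcf4 under quantile, common-median and length scaling (adjusted p up to 0.438), and for Ldb2 without HE1 0 (adjusted p = 0.0774), Nfatc1 without HE1 0 (adjusted p = 0.0566) and Tcf4 without Flk-1+ 1 or 2 or HE1 0 or 1 (adjusted p up to 0.226), so that Mecom alone was called without HE1 0.

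**Figure D3:**
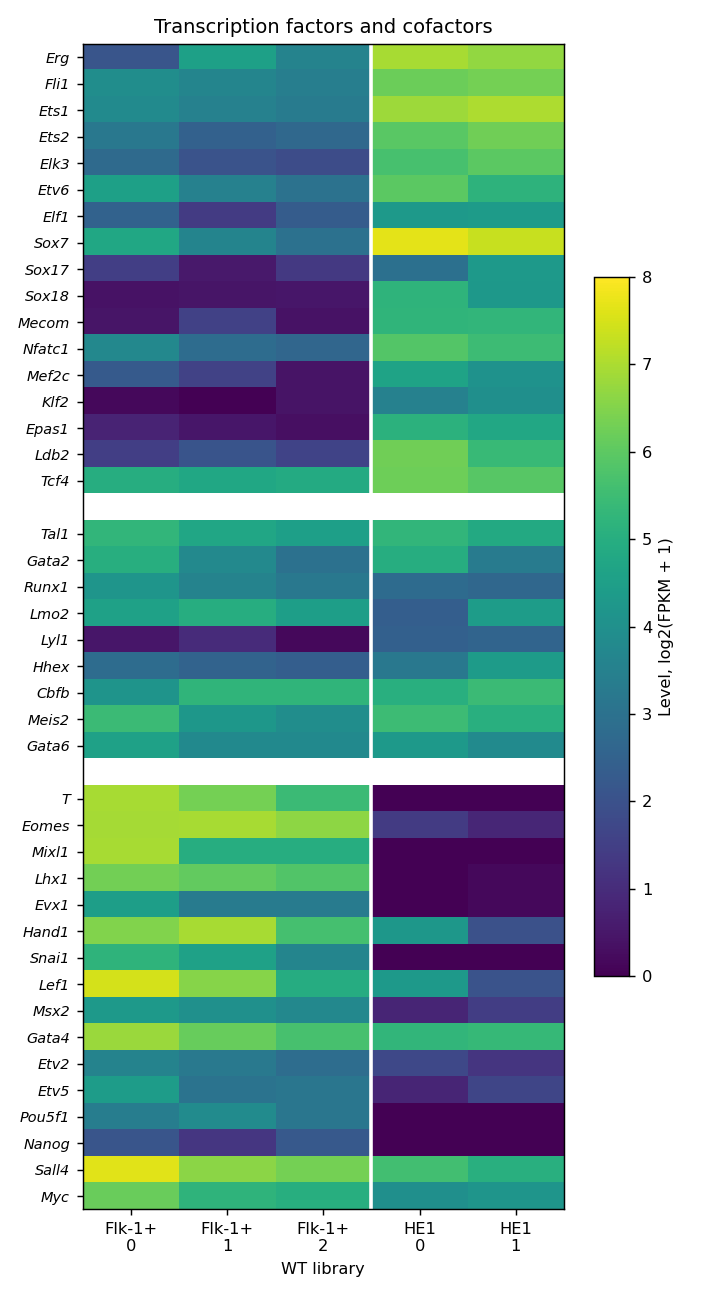
Level of transcription factors and cofactors in each WT library, coloured by log2(FPKM + 1), with Flk-1+ libraries on the left of the white line and HE1 libraries on the right. The upper block shows factors among the rises such as Erg, Fli1 and Ets1, the middle block haematopoietic factors such as Tal1, Gata2 and Runx1, and the lower block streak and early embryonic factors, of which T, Mixl1 and Snai1 were listed at 0 in HE1.

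Other factors named for this stage in the study also did not pass. Stat5b was at 5.61, 5.27 and 5.96 FPKM in Flk-1+ cells and 11.8 and 9.51 FPKM in HE1 and Rxra at 16.7, 9.38 and 2.95 FPKM in Flk-1+ cells and 6.48 and 6.31 FPKM in HE1. Stat3, which transmits gp130 signals, was at 18, 13.6 and 6.14 FPKM in Flk-1+ cells and 43.7 and 44.2 FPKM in HE1 with no overlap (adjusted p = 0.0906). Runx1t1 and Lmo1 were below 7 FPKM in every library. Genes of mature blood cells were mostly under the filter, since 6 of 28 were tested. Cd44, the hyaluronan receptor, rose from 11.6, 5.11 and 2.37 FPKM to 31.3 and 36.5 FPKM and Gypc, the red cell membrane protein glycophorin C, from 8.09, 4.05 and 2.43 FPKM to 28.7 and 27.5 FPKM. These calls were lost for Cd44 without Flk-1+ 1 or 2 or HE1 0 or 1 (adjusted p up to 0.104) and Gypc without Flk-1+ 1 or 2 or HE1 0 or 1 (adjusted p up to 0.137). Cd24a and Car2 were at 62.6, 18.3 and 28.9 and 50.3, 17 and 22.2 FPKM in Flk-1+ cells and at 65.6 and 64.5 and 18.4 and 14.2 FPKM in HE1, without passing. Hox genes, of which 9 were tested, gave no call with limma. An unadjusted p below 0.05 was met by 5 of them, against 3255 of all 11990 genes tested. An adjusted p below 0.05 was met by 3, against 1462 of all genes tested, and all of these 3 had means below 10 FPKM. Hoxb2 was at 1.37, 3.28 and 2.95 FPKM in Flk-1+ cells and 4.05 and 6.77 FPKM in HE1 and Hoxb5 at 0.904, 0.158 and 0.223 FPKM in Flk-1+ cells and 4.86 and 4.92 FPKM in HE1.

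Factors of the primitive streak were among the largest falls. T, or Brachyury (chr17:8434423-8442496, plus strand, GRCm38), was at 122, 78.8 and 43.3 FPKM in Flk-1+ cells and listed at 0 in both HE1 libraries (adjusted p = 2.62e-05). Eomes, the T-box factor of early mesoderm and endoderm, was at 119, 122 and 98.3 FPKM in Flk-1+ cells and 1.64 and 0.811 FPKM in HE1 (log2 difference -5.7 ± 0.36, adjusted p = 3.92e-06). Lhx1, a LIM homeobox factor of the streak and its derivatives, was at 78, 67.2 and 55.5 FPKM in Flk-1+ cells and 0 and 0.136 FPKM in HE1 (log2 difference -5.98 ± 0.44, adjusted p = 7.43e-06). Mixl1, a homeobox target of Nodal and BMP in the streak, was at 122, 30.6 and 30.9 FPKM in Flk-1+ cells and listed at 0 in HE1 (adjusted p = 0.000226). Of 25 tested streak and mesoderm factors 9 (36.0%) fell and none rose, with a median difference of -1.64, which depends on the pseudocount because some members were listed at 0 in HE1. Snai1, the repressor of E-cadherin in gastrulation, Evx1, Msx2 and Lef1, a Wnt effector, were among these falls. Hand1, a factor of extraembryonic and cardiac mesoderm, fell from 87.9, 124 and 48.9 FPKM to 17.7 and 2.96 FPKM (log2 difference -3.25 ± 0.63, adjusted p = 0.0048). Gata4, a cardiac and endodermal GATA factor, was at 109.8, 69.3 and 49.6 FPKM in Flk-1+ cells and 37.8 and 40.3 FPKM in HE1 (adjusted p = 0.183), and Tbx3 was at 63.1, 37.8 and 39.99 FPKM in Flk-1+ cells and 23.8 and 14.8 FPKM in HE1 (adjusted p = 0.061). Losses touched Hand1 without HE1 1 (adjusted p = 0.0797), Lef1 without Flk-1+ 0 or 1 or HE1 1 (adjusted p up to 0.269) and Evx1 without Flk-1+ 0 (on the FPKM criterion). Across the leave-one-out fits and the scalings 7 to 11 members were called lower and none higher.

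Genes of the early embryo moved the same way in 3 of 16 (18.8%) tested members, with no rise. Tdgf1, the Nodal co-receptor Cripto, was at 49.1, 41.7 and 63.8 FPKM in Flk-1+ cells and 0 and 0.172 FPKM in HE1 (log2 difference -5.58 ± 0.44, adjusted p = 1.35e-05), and its pseudogene Tdgf1-ps1, whose reads may be shared with it, was at 44.3, 55.7 and 77.7 FPKM in Flk-1+ cells and listed at 0 in HE1. Pou5f1, the pluripotency factor OCT4, was at 9.45, 13.6 and 7.91 FPKM in Flk-1+ cells and listed at 0 in HE1 (adjusted p = 0.00229). Sall4, another pluripotency factor, fell from 198, 95.9 and 79.7 FPKM to 46.5 and 32.3 FPKM. Lin28a and Trim71, which keep cells in an early state through let-7, were at 64.8, 35.1 and 46.8 and 90.1, 52.6 and 68.6 FPKM in Flk-1+ cells and 36.9 and 40.1 and 112 and 105 FPKM in HE1, with no call. The remaining members of the 10 largest falls were Ifitm1 and Lgr5, described with their groups, Dpysl5, a neuronal cytosolic phosphoprotein gene (39.3, 33.8 and 24.8 FPKM against 0 in both HE1 libraries), and Vrtn, a gene of vertebral number (40.5, 38.3 and 23.7 against 0.124 and 0 FPKM). The calls that did not hold were those of Sall4 without Flk-1+ 0 or 1 or HE1 0 or 1 (adjusted p up to 0.205) and Pou5f1 without Flk-1+ 1 (on the FPKM criterion).

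Cardiac genes were few, with 9 of 20 tested and 1 rise. Mef2c, a factor of heart and vessels, went from 3.8, 2.0 and 0.349 FPKM to 23.8 and 16.1 FPKM (log2 difference 2.94 ± 0.69, adjusted p = 0.0146). Myl7, an atrial myosin light chain, was at 8.02, 7.54 and 11.7 FPKM in Flk-1+ cells and listed at 0 in HE1 (adjusted p = 0.00616). Smarcd3 was lower in HE1 as well (log2 difference -2.83, adjusted p = 0.00342), and both had means below the 10 FPKM that a call needs. Hand2 was at 5.84, 11 and 5.89 FPKM in Flk-1+ cells and 12.9 and 9.86 FPKM in HE1. Cardiac markers summed to 14.02 to 17.6 FPKM in Flk-1+ cells and to 9.61 and 10.5 FPKM in HE1. Of 8 tested endodermal, epithelial and neural genes, Nes, an intermediate filament gene of progenitors and endothelium, was the only one called, from 6.25, 8.06 and 7.73 FPKM to 27.3 and 36.3 FPKM. Neither rise was stable, with calls lost for Mef2c without Flk-1+ 2 or HE1 0 or 1 (adjusted p up to 0.138) and Nes without Flk-1+ 1 or 2 or HE1 0 or 1 (adjusted p up to 0.138), and for Mef2c under length scaling (adjusted p = 0.0656) and Nes under quantile, common-median and length scaling (adjusted p up to 0.115). After quantile normalisation 1 of the 8 was called lower. Apoe and Krt8 were at 77.9, 255 and 88.8 and 13.7, 21.4 and 13.8 FPKM in Flk-1+ cells and at 69 and 71.1 and 9.81 and 5.37 FPKM in HE1.

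The 250 bases before the RefSeq start of 2 of the largest rises and 2 of the largest falls are shown, as those with a single promoter in the RefSeq table of GRCm38.p6. All are printed 5′ to 3′ on the strand of the gene, and capitals mark the E-box CAGCTG bound by TAL1 and other basic helix-loop-helix factors. Acta2 lies at chr19:34255374-34255623 on the minus strand, Tek at chr4:94739039-94739288 on the plus strand, T at chr17:8434173-8434422 on the plus strand and Lhx1 at chr11:84525535-84525784 on the minus strand. The locus of Acta2 in the GENCODE annotation starts farther upstream than in RefSeq, so that 217 of the 250 bases lie inside it.
Acta2: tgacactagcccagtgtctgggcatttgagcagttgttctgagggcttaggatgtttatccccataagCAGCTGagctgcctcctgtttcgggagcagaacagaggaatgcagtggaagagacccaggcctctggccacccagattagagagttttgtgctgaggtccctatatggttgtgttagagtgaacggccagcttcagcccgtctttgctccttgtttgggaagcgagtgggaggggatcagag
Tek: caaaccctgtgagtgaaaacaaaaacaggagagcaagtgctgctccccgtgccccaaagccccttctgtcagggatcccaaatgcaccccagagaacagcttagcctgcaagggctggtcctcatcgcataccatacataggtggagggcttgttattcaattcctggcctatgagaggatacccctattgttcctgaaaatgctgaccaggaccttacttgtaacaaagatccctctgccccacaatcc
T: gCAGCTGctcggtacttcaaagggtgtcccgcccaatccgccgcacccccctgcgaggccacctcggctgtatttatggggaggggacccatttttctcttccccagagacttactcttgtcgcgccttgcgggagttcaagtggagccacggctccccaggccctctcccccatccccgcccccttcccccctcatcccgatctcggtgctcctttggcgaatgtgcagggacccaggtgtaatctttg
Lhx1: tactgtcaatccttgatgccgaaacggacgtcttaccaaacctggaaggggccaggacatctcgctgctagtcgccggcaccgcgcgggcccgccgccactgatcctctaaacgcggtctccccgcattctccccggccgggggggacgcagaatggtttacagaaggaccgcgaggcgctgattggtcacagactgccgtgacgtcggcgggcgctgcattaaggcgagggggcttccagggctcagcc
Acta2 and T, which moved in opposite directions, each hold 1 such E-box, and Tek and Lhx1 hold none. 3 other motifs were searched on both strands and not found in these 4 windows. The ETS motif was AGGAAG. The GATA motif was AGATAA. The T-box motif was GGTGTGA. The E-box reads the same on both strands. Over the 6136 tested genes with a single promoter, the window held the ETS motif in 26.6%, the E-box in 10.7%, the GATA motif in 5.15% and the T-box motif in 2.54%. Among the 465 genes called higher the shares were 34%, 12.3%, 4.95% and 3.44%, and among the 75 called lower they were 24%, 13.3%, 8% and 2.67%. These are matches of letters and were not tested against the differences.

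Wnt genes fell in 4 of 27 (14.8%) tested members and rose in 1, with a median difference of -1.27. Axin2, a feedback target of canonical Wnt signalling, was at 31.8, 26.3 and 17.1 FPKM in Flk-1+ cells and 0.373 and 0.971 FPKM in HE1 (log2 difference -3.94 ± 0.50, adjusted p = 0.0003). Lgr5, a receptor for the Wnt-enhancing R-spondins, was at 15, 28.9 and 28.3 FPKM in Flk-1+ cells and listed at 0 in HE1 (adjusted p = 0.00295). Nkd1, another feedback inhibitor, fell from 9.04, 19.5 and 12.1 FPKM to 0 and 1.01 FPKM (log2 difference -3.3 ± 0.57, adjusted p = 0.00234), and Tcf7, a nuclear effector, fell too. Thus 2 feedback genes of the pathway were close to 0 in HE1. Fzd4, the endothelial receptor for Norrin and Wnt ligands, rose instead, from 2.11, 1.41 and 2.87 FPKM to 30.7 and 30.2 FPKM (log2 difference 3.36 ± 0.43, adjusted p = 0.000328). Fzd7 was at 71.5, 44.5 and 40.3 FPKM in Flk-1+ cells and 20.1 and 20.6 FPKM in HE1 (adjusted p = 0.0756), and the co-receptor gene Lrp6 was at 34.6, 18.1 and 25 FPKM in Flk-1+ cells and 35.4 and 32.3 FPKM in HE1 (adjusted p = 0.472). Of these calls, 1 was lost, Tcf7 without HE1 1 (adjusted p = 0.141), and each of the 3 scalings gave 6 falls.

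FGF genes fell in 3 of 14 (21.4%) tested members, and none rose. Fgf3, a ligand of the posterior streak, was at 25.2, 18.5 and 12 FPKM in Flk-1+ cells and 0 and 0.571 FPKM in HE1 (log2 difference -3.9 ± 0.51, adjusted p = 0.000349). Fgf15, a second ligand, fell from 21.2, 9.77 and 12.7 FPKM to 0.425 and 0.923 FPKM, and Il17rd, the FGF antagonist Sef, from 22.1, 12.1 and 14.7 FPKM to 4.79 and 2.52 FPKM. Those calls were lost for Fgf15 without HE1 0 (adjusted p = 0.0718) and Il17rd without HE1 1 (adjusted p = 0.0788). Each of the 3 scalings gave 4 falls among the FGF genes. The receptor gene Fgfr1 was at 35.5, 50.4 and 33.7 FPKM in Flk-1+ cells and 40.6 and 27.1 FPKM in HE1 and the feedback phosphatase gene Dusp4 at 29, 17.3 and 17.5 FPKM in Flk-1+ cells and 24.8 and 20.6 FPKM in HE1, both overlapping. Of 6 tested retinoic acid genes 2 fell. Cyp26a1, which degrades retinoic acid, went from 35.7, 26 and 34.2 FPKM to 0.435 and 7.74 FPKM (log2 difference -3.2 ± 0.66, adjusted p = 0.00685), and Crabp1, a cytosolic retinoic acid binding protein gene, was at 10.6, 16.1 and 7.37 FPKM in Flk-1+ cells and listed at 0 in HE1. The receptor genes Rara and Rarg were at 10.1, 5.64 and 4.37 and 7.4, 11.5 and 5.0 FPKM in Flk-1+ cells and at 9.2 and 11.4 and 6.45 and 7.54 FPKM in HE1. Here too the calls ended, for Cyp26a1 without HE1 0 (adjusted p = 0.113) and Crabp1 without Flk-1+ 1 (on the FPKM criterion).

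In the BMP and TGF-beta pathway, 7 of 26 (26.9%) tested members rose and 2 fell. Eng, the endothelial co-receptor endoglin, was at 8.39, 6.23 and 3.41 FPKM in Flk-1+ cells and 83.4 and 77.6 FPKM in HE1 (log2 difference 3.61 ± 0.48, adjusted p = 0.000407). Tgfbr2, the TGF-beta type II receptor, was at 1.64, 1.64 and 1.33 FPKM in Flk-1+ cells and 37 and 33 FPKM in HE1 (log2 difference 3.83 ± 0.43, adjusted p = 0.000129). The endothelial type I receptor gene Acvrl1, or ALK1, rose as well, from 2.35, 1.4 and 2.78 FPKM to 22.9 and 19.8 FPKM. Among the ligands Bmp6 rose from 3.0, 1.46 and 1.55 FPKM to 38.8 and 26.9 FPKM, and Bmp4, the inducer of ventral mesoderm, fell from 48.8, 71.9 and 31.9 FPKM to 9.43 and 11.8 FPKM (log2 difference -2.09 ± 0.63, adjusted p = 0.0467). Acvr2b, a receptor for activin and Nodal, fell from 15.4, 7.99 and 9.94 FPKM to 4.33 and 1.98 FPKM. The falls were not called with any 1 of the 5 libraries left out, and calls ended for Bmp4 without Flk-1+ 0, 1 or 2 or HE1 0 or 1 (adjusted p up to 0.242), Acvr2b without Flk-1+ 0, 1 or 2 or HE1 0 or 1 (adjusted p up to 0.277) and Bmp6 without HE1 0 (adjusted p = 0.054). Tgfb1 and Bmpr1a were at 18.2, 34.5 and 28.9 and 33.2, 20.1 and 24.5 FPKM in Flk-1+ cells and 48.7 and 42 and 46.5 and 44.3 FPKM in HE1, with no call. In the Nodal pathway, Cfc1 and Lefty2 were lower in HE1 (log2 difference -2.91 and -2.355, adjusted p = 0.0107 and 0.0112). Both stayed below the 10 FPKM that a call needs. Of 6 tested Nodal pathway genes, Smad2 rose, from 10.7, 11.5 and 9.86 FPKM to 30.9 and 20.1 FPKM, a call lost for Smad2 without Flk-1+ 0, 1 or 2 or HE1 0 or 1 (adjusted p up to 0.324) and for Smad2 under quantile, common-median and length scaling (adjusted p up to 0.373), while Furin and Nomo1 were at 36.9, 19.4 and 8.16 and 16.5, 25.4 and 15 FPKM against 80.7 and 29.4 and 10.6 and 17.1 FPKM.

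**Figure D4:**
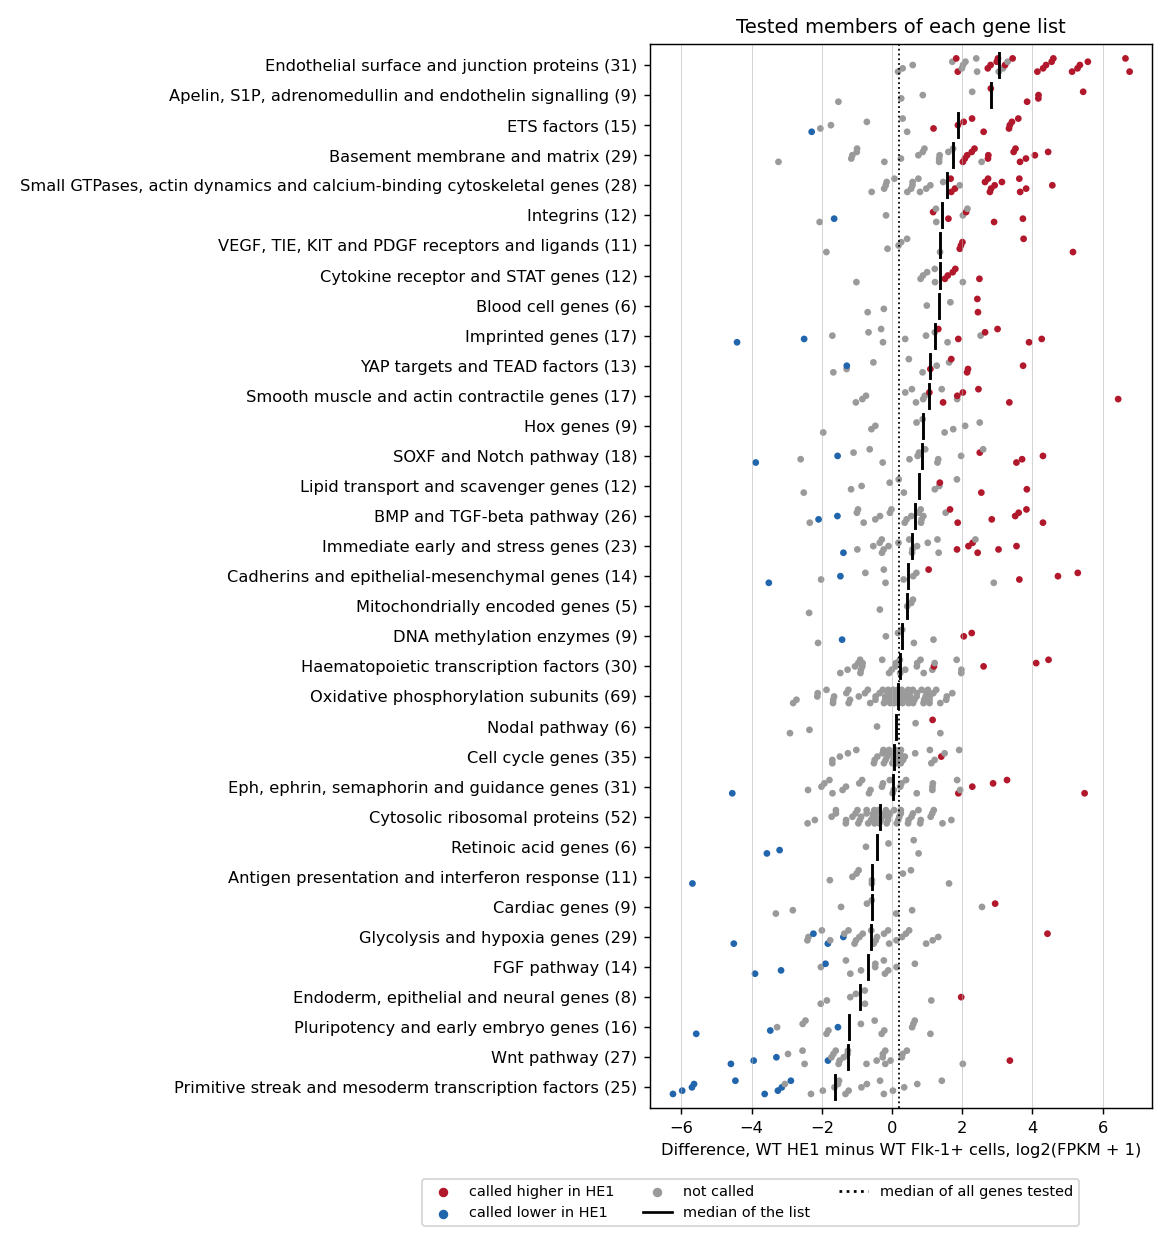
Difference between HE1 and Flk-1+ cells in log2(FPKM + 1) for every tested member of each gene list, with the number tested in brackets. Points are genes, coloured by call; the black bar is the median of a list and the dotted line the median of all genes tested, 0.20. Endothelial surface genes lie farthest to the right, with a median of 3.04, and streak factors farthest to the left, with a median of -1.64.

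The cytoskeleton changed next to the junctions. Acta2, smooth muscle alpha-actin, was at 0.69, 0.926 and 0.239 FPKM in Flk-1+ cells and 165 and 114 FPKM in HE1 (log2 difference 6.44 ± 0.51, adjusted p = 1.35e-05). Tagln, the actin cross-linker SM22, was at 7.52, 3.25 and 2.98 FPKM in Flk-1+ cells and 50.5 and 53.7 FPKM in HE1 (log2 difference 3.34 ± 0.56, adjusted p = 0.00199), and its relative Tagln2 was at 21.8, 22.9 and 17.1 FPKM in Flk-1+ cells and 122 and 112 FPKM in HE1 (log2 difference 2.46 ± 0.39, adjusted p = 0.00131). Of 17 tested smooth muscle and contractile genes 7 (41.2%) rose and none fell, the others being Vcl, Flna, Cald1 and Tpm4. Smooth muscle markers summed to 6.75 to 11.6 FPKM in Flk-1+ cells and to 169.6 and 218 FPKM in HE1, and 3 of the 6 had a mean of at least 1 FPKM in HE1. Acta2 and Tagln made up most of the HE1 sum, and Des was lower in HE1 without a call (log2 difference -1.03, adjusted p = 0.286). Fibroblast markers summed to 6.50 to 14.3 FPKM and to 25.1 and 35.7 FPKM, with Dcn and Lum listed at 0 in all 5 libraries and Thy1 in HE1. Postn, given with the matrix genes, was among those higher in HE1, and Col1a1 was not (log2 difference -0.22). The part of such cells in these differences was not tested. Tpm1 and Tpm3, tropomyosins of many cells, were at 74.1, 133 and 94.6 and 86.4, 129 and 69.5 FPKM in Flk-1+ cells and 155 and 160.2 and 141 and 101 FPKM in HE1 and did not pass. Without HE1 library 0, 3 of the list were called, and without HE1 library 1 or Flk-1+ library 2, 4. These losses were Vcl without HE1 0 (adjusted p = 0.119), Flna without Flk-1+ 1 or 2 or HE1 0 or 1 (adjusted p up to 0.133), Cald1 without Flk-1+ 0 or 2 or HE1 0 or 1 (adjusted p up to 0.23) and Tpm4 without Flk-1+ 1 or 2 or HE1 0 or 1 (adjusted p up to 0.163). Further losses were Flna under common-median and length scaling (adjusted p up to 0.0959), Cald1 under quantile, common-median and length scaling (adjusted p up to 0.43) and Tpm4 under quantile and common-median scaling (adjusted p up to 0.13), with 4 rises under common-median scaling.

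Of 28 tested genes for small GTPases, actin dynamics and calcium-binding proteins 13 (46.4%) rose and none fell. S100a6, a calcium-binding protein gene, was at 0.694, 4.98 and 0 FPKM in Flk-1+ cells and 31.4 and 79.98 FPKM in HE1 (log2 difference 4.56 ± 0.85, adjusted p = 0.00396). Lgals1, galectin 1, was at 8.22, 11.2 and 7.69 FPKM in Flk-1+ cells and 159 and 95.8 FPKM in HE1 (log2 difference 3.65 ± 0.75, adjusted p = 0.00674), and Anxa1, an annexin gene, was listed at 0 in Flk-1+ cells and was at 24.1 and 6.93 FPKM in HE1 (adjusted p = 0.00338). Tmsb4x, which encodes the actin-sequestering thymosin beta-4, went from 17.6, 10.01 and 32.6 FPKM to 145 and 189.7 FPKM, and Rhoj, an endothelial small GTPase gene, from 9.24, 4.31 and 5.72 FPKM to 45.9 and 41.7 FPKM. Actb and Cfl1, which encode beta-actin and cofilin, were abundant without a call, with 2378, 1069 and 602 FPKM against 2352 and 1261 FPKM for Actb and 257, 128 and 114 FPKM against 269 and 255 FPKM for Cfl1, and overlapped. The rises were 5 without HE1 library 0 and 6 without HE1 library 1. Among the named, calls ended for S100a6 without HE1 1 (adjusted p = 0.0588), Lgals1 without HE1 0 (adjusted p = 0.0937), Anxa1 without HE1 0 (adjusted p = 0.0653) and Rhoj without HE1 0 or 1 (adjusted p up to 0.086).

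A list around the Hippo effector YAP, with its targets, its regulators and the TEAD factors, rose in 5 of 13 (38.5%) tested members and fell in 1. No TEAD factor was called. Ankrd1 was at 0.558, 0.255 and 0.361 FPKM in Flk-1+ cells and 15.1 and 20.1 FPKM in HE1 (log2 difference 3.73 ± 0.62, adjusted p = 0.00188). Ctgf, a secreted matricellular protein gene, rose from 1.91, 2.3 and 2.39 FPKM to 16.9 and 10.04 FPKM, and Wwtr1, which encodes the YAP relative TAZ, from 12.1, 5.21 and 6.84 FPKM to 36.4 and 38.7 FPKM. Amot, which holds YAP in the cytoplasm, fell from 298, 137 and 162 FPKM to 77.3 and 75.2 FPKM (log2 difference -1.29 ± 0.37, adjusted p = 0.0364). Yap1 and Tead1 were at 46.4, 34.1 and 34.4 and 54.4, 32.7 and 28.9 FPKM in Flk-1+ cells and 56.5 and 50.1 and 73.4 and 64.5 FPKM in HE1, with no call. The length scaling covered 11 of the 13 and gave 2 rises, 2 falls and a median of 0.08, against 4 rises, 1 fall and a median of 0.87 for those 11 without it. Quantile normalisation gave 3 rises and common-median scaling 2, each with 2 falls. Ankrd1 was the 1 rise called without either HE1 library, and 2 rises were called without Flk-1+ 2 and 3 without Flk-1+ 1. Calls ended for Ctgf under common-median scaling (adjusted p = 0.0852), and for Ctgf without Flk-1+ 0, 1 or 2 or HE1 0 or 1 (adjusted p up to 0.232), Wwtr1 without HE1 0 or 1 (adjusted p up to 0.0639) and Amot without Flk-1+ 0 or 2 or HE1 0 or 1 (adjusted p up to 0.176).

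Matrix genes rose in 13 of 29 (44.8%) tested members, and none fell. Fbn1, fibrillin 1 of microfibrils, was at 14.1, 4.57 and 5.13 FPKM in Flk-1+ cells and 189 and 159.5 FPKM in HE1 (log2 difference 4.45 ± 0.43, adjusted p = 4.75e-05). Col18a1, the basement membrane collagen that is cut to endostatin, was at 6.94, 11.7 and 4.66 FPKM in Flk-1+ cells and 129 and 104 FPKM in HE1 (log2 difference 3.81 ± 0.66, adjusted p = 0.00229). Postn, periostin, was listed at 0 in Flk-1+ cells and was at 19.97 and 12.4 FPKM in HE1 (adjusted p = 0.000558). Both chains of basement membrane collagen IV that form its common network rose, Col4a1 from 46.8, 33.9 and 24.6 FPKM to 243 and 219.8 FPKM and Col4a2 from 29.5, 27.5 and 15 FPKM to 196 and 130.4 FPKM. The laminin chains Lama4 and Lamc1, nidogen 1 and perlecan (Hspg2) rose with them. Igfbp4 and the laminin chain gene Lamb1 were at 66.7, 62.9 and 32.1 and 46.2, 26.4 and 29.2 FPKM in Flk-1+ cells and 96.6 and 99.5 and 84.1 and 37.2 FPKM in HE1 and did not pass. Leaving out an HE1 library left 8 (library 0) or 7 (library 1) of these calls, and quantile, common-median and length scaling gave 12, 13 and 11 rises with 1 fall each. Named losses were Lama4 without Flk-1+ 1 or 2 or HE1 0 or 1 (adjusted p up to 0.211), Lamc1 without HE1 0 or 1 (adjusted p up to 0.0938) and Hspg2 without Flk-1+ 1 or 2 or HE1 0 or 1 (adjusted p up to 0.227), and Lama4 under quantile and length scaling (adjusted p up to 0.12) and Hspg2 under length scaling (adjusted p = 0.117).

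Among integrins 5 of 12 (41.7%) tested members rose and 1 fell. Itga1, a collagen receptor chain, was at 3.88, 0.594 and 1.48 FPKM in Flk-1+ cells and 32.8 and 36.2 FPKM in HE1 (log2 difference 3.73 ± 0.50, adjusted p = 0.000406). Itga3 and Itgav rose from 2.24, 0.864 and 0.483 and 23.3, 6.56 and 8.7 FPKM to 11.3 and 18.7 and 55.8 and 47 FPKM, and Itgb5 fell from 12.3, 12.7 and 14.2 FPKM to 3.75 and 3.21 FPKM. Of these Itga1 alone kept its call under every alternative, and without HE1 library 1 it was the only rise called. Calls ended for Itga3 without HE1 1 (adjusted p = 0.0561), Itgav without Flk-1+ 1 or 2 or HE1 0 or 1 (adjusted p up to 0.199) and Itgb5 without Flk-1+ 0, 1 or 2 or HE1 0 or 1 (adjusted p up to 0.183), and 2 rises were left without HE1 0 or Flk-1+ 2 and 3 without Flk-1+ 1. The rises were 2 under quantile and common-median scaling and 3 under length scaling, with the call lost for Itgav under quantile, common-median and length scaling (adjusted p up to 0.154). Itga5, the main fibronectin receptor chain, was at 33.1, 18.6 and 12.8 FPKM in Flk-1+ cells and 46.8 and 51.5 FPKM in HE1 (adjusted p = 0.109), and Itga9 was at 19.7, 14.2 and 12.7 FPKM in Flk-1+ cells and 12.7 and 14.2 FPKM in HE1.

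Other cadherin genes changed in both directions. Pcdh17, a protocadherin gene, was at 0.63, 0.816 and 0.272 FPKM in Flk-1+ cells and 66.3 and 54 FPKM in HE1 (log2 difference 5.29 ± 0.43, adjusted p = 1.50e-05). Pcdh12, an endothelial protocadherin gene also called VE-cadherin-2, was at 2.0, 1.36 and 0.671 FPKM in Flk-1+ cells and 74 and 47.5 FPKM in HE1 (log2 difference 4.73 ± 0.49, adjusted p = 8.99e-05). Cdh11, a mesenchymal cadherin gene, fell from 65.8, 26.5 and 32.1 FPKM to 2.19 and 2.72 FPKM (log2 difference -3.51 ± 0.45, adjusted p = 0.000334), and Cdh2, N-cadherin, from 118, 52.7 and 54.8 FPKM to 25.7 and 23.4 FPKM (log2 difference -1.47 ± 0.37, adjusted p = 0.022). Vim, the intermediate filament vimentin, rose from 97.9, 58.1 and 63.8 FPKM to 835 and 954 FPKM (log2 difference 3.63 ± 0.43, adjusted p = 0.000212), which placed it among the most abundant called mRNAs. Fn1, fibronectin, was abundant at both stages, at 2896, 821 and 687 FPKM in Flk-1+ cells and 1534 and 1426 FPKM in HE1, with HE1 inside the range of the Flk-1+ libraries, and Mmp14 was at 31.9, 25.8 and 12.2 FPKM in Flk-1+ cells and 16 and 20.8 FPKM in HE1. Over 14 tested members, 4 rose and 2 fell. A call was lost for Cdh2 without HE1 0 or 1 (adjusted p up to 0.124).

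Guidance genes, which steer vessels and axons, rose in 5 of 31 (16.1%) tested members and fell in 1, with a median difference of 0.02 that was negative under all 3 other scalings. Flrt2, a ligand of Unc5 receptors, was at 2.21, 0.14 and 0.90 FPKM in Flk-1+ cells and 85.2 and 83.7 FPKM in HE1 (log2 difference 5.48 ± 0.50, adjusted p = 3.49e-05). Sema6a, a transmembrane semaphorin gene, was at 7.27, 3.41 and 3.41 FPKM in Flk-1+ cells and 47.3 and 32.1 FPKM in HE1 (log2 difference 2.88 ± 0.47, adjusted p = 0.00167). Plxnd1, the endothelial semaphorin receptor, was at 37.8, 32.2 and 17 FPKM in Flk-1+ cells and 299.7 and 253 FPKM in HE1 (log2 difference 3.27 ± 0.68, adjusted p = 0.00734). Ephb4, the venous Eph receptor, rose from 30.3, 13.5 and 9.09 FPKM to 59.6 and 61.3 FPKM. Its arterial ligand Efnb2 was at 32, 24.3 and 22.3 FPKM in Flk-1+ cells and 61.3 and 56.2 FPKM in HE1. Efnb2 was thus also higher in both HE1 libraries, without a call (adjusted p = 0.0798). Cxcr4, the receptor for the chemokine CXCL12, was at 32.3, 17.6 and 19.9 FPKM in Flk-1+ cells and listed at 0 in HE1 (adjusted p = 0.000134). Plxna1 was at 107, 46.1 and 34.7 FPKM in Flk-1+ cells and 113 and 47.9 FPKM in HE1. Calls ended for Plxnd1 without HE1 0 or 1 (adjusted p up to 0.0833) and Ephb4 without Flk-1+ 1 or 2 or HE1 0 or 1 (adjusted p up to 0.154), and for Ephb4 under quantile and length scaling (adjusted p up to 0.0533), and the length scaling gave 2 falls.

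Cytokine receptor and STAT genes rose in 5 of 12 (41.7%) tested members. Lifr, the receptor for leukaemia inhibitory factor, was at 49.8, 26.1 and 35.8 FPKM in Flk-1+ cells and 212 and 201 FPKM in HE1 (log2 difference 2.49 ± 0.35, adjusted p = 0.000642). Its partner Il6st, or gp130, rose from 30.6, 19.9 and 35.5 FPKM to 66.8 and 98.1 FPKM, the kinase gene Jak1 from 12.9, 10.5 and 17.6 FPKM to 44.5 and 48.8 FPKM, and the interferon receptor gene Ifnar1 from 25, 15.1 and 13.9 FPKM to 63.4 and 62.7 FPKM. Lifr was the single rise left without HE1 0, HE1 1 or Flk-1+ 1, 2 rises were left without Flk-1+ 2 and under the quantile, common-median and length scalings, and 3 without Flk-1+ 0. Calls were lost for Il6st under quantile, common-median and length scaling (adjusted p up to 0.308) and Jak1 under quantile, common-median and length scaling (adjusted p up to 0.0969). Losses were Il6st without Flk-1+ 0, 1 or 2 or HE1 0 or 1 (adjusted p up to 0.246), Jak1 without Flk-1+ 1 or HE1 0 or 1 (adjusted p up to 0.101) and Ifnar1 without Flk-1+ 1 or 2 or HE1 0 or 1 (adjusted p up to 0.108). Socs2 and Stat6 were at 18.7, 9.33 and 21.6 and 12.9, 8.16 and 5.13 FPKM in Flk-1+ cells and 5.83 and 8.88 and 17.3 and 17.4 FPKM in HE1. Of 11 tested genes of antigen presentation and interferon response, Ifitm1, a membrane protein gene of early mesoderm and germ cell precursors, was at 93.5, 37.9 and 36.2 FPKM in Flk-1+ cells and listed at 0 in HE1 (adjusted p = 0.000162). Its neighbour in the family, Ifitm2, was at 39.8, 58.6 and 43.7 FPKM in Flk-1+ cells and 32.6 and 17.1 FPKM in HE1, and B2m, the light chain of MHC class I, was at 29.5, 12.2 and 12.8 FPKM in Flk-1+ cells and 47.6 and 59.99 FPKM in HE1, neither of them called. Quantile normalisation gave 2 falls in this list in place of 1.

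Immediate early and stress genes rose in 6 of 23 (26.1%) tested members and fell in 1. Klf2, the factor that endothelium makes under flow, was at 0.133, 0 and 0.344 FPKM in Flk-1+ cells and 10.4 and 14.8 FPKM in HE1 (log2 difference 3.54 ± 0.44, adjusted p = 0.000267). Atf3 was at 1.92, 1.42 and 1.53 FPKM in Flk-1+ cells and 19.5 and 21.4 FPKM in HE1 (log2 difference 3.03 ± 0.58, adjusted p = 0.00448), and Klf6 was at 15.4, 10.5 and 15 FPKM in Flk-1+ cells and 81.4 and 73.8 FPKM in HE1 (log2 difference 2.44 ± 0.46, adjusted p = 0.00413). Jun and Egr1, which respond within minutes to handling and growth factors in many cells, rose from 9.15, 4.73 and 5.01 and 5.01, 5.45 and 3.92 FPKM to 34.9 and 32.2 and 23 and 27.1 FPKM. The stages also differed in their isolation, by magnetic sorting from embryoid bodies or by flow sorting from a blast culture that held VEGF and IL-6. These differences in isolation and culture cannot be told apart from the stage. Myc fell from 71.4, 35.6 and 31.7 FPKM to 14.9 and 17.1 FPKM, and Mycn was at 23.1, 13.5 and 11.3 FPKM in Flk-1+ cells and 9.57 and 15.8 FPKM in HE1. Hsp90aa1 was at 57.5, 80.8 and 113 FPKM in Flk-1+ cells and 98.9 and 57 FPKM in HE1. Without HE1 library 0 there were 2 rises, and calls ended for Klf6 without HE1 0 (adjusted p = 0.0544), Jun without HE1 0 (adjusted p = 0.0566), Egr1 without Flk-1+ 0, 1 or 2 or HE1 0 or 1 (adjusted p up to 0.163) and Myc without Flk-1+ 0, 1 or 2 or HE1 0 or 1 (adjusted p up to 0.24). The call also ended for Egr1 under quantile, common-median and length scaling (adjusted p up to 0.134).

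Lipid transport and scavenger genes rose in 3 of 12 tested members. Mrc1, the mannose receptor of sinusoidal endothelium and macrophages, was at 1.91, 0.159 and 0.61 FPKM in Flk-1+ cells and 25.3 and 23.1 FPKM in HE1 (log2 difference 3.84 ± 0.46, adjusted p = 0.000217). Scarf1, an endothelial scavenger receptor, went from 0.856, 0.506 and 0.356 FPKM to 17.3 and 3.52 FPKM, a call lost for Scarf1 without HE1 0 (adjusted p = 0.115). Quantile, common-median and length scaling gave 2 rises each, with 2, 1 and 2 falls. Slc2a1, the glucose transporter GLUT1, and Lrp1 were at 63.8, 70.1 and 53.5 and 67.6, 46.4 and 39.2 FPKM in Flk-1+ cells and 71.3 and 70.4 and 34.9 and 20.5 FPKM in HE1.

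Glycolysis was the metabolic list with falls, 4 of 29 (13.8%) tested members, against 1 rise, and its median difference was -0.59. Ldha, the lactate dehydrogenase chain of anaerobic glycolysis, was at 258, 333 and 274 FPKM in Flk-1+ cells and 87.6 and 72.8 FPKM in HE1 (log2 difference -1.83 ± 0.30, adjusted p = 0.00172). Pkm, pyruvate kinase, was at 172, 386 and 158 FPKM in Flk-1+ cells and 51.1 and 40.6 FPKM in HE1 (log2 difference -2.24 ± 0.53, adjusted p = 0.0157). Ldhb, the other main lactate dehydrogenase chain, was at 18.3, 16.4 and 34.2 FPKM in Flk-1+ cells and listed at 0 in HE1 (adjusted p = 0.00228), and Tpi1, triosephosphate isomerase, fell from 30.3, 61.8 and 37.1 FPKM to 14.3 and 16 FPKM. All 4 encode enzymes, while the 1 rise was Epas1, the hypoxia factor HIF-2 alpha of endothelium, at 0.746, 0.403 and 0.265 FPKM in Flk-1+ cells and 34.5 and 26.7 FPKM in HE1 (log2 difference 4.43 ± 0.59, adjusted p = 0.000418). The glucose transporter gene Slc2a3 was at 36.5, 37.8 and 53.4 FPKM in Flk-1+ cells and 43.9 and 47.8 FPKM in HE1, and Gpi1 was at 50.5, 137 and 38.8 FPKM in Flk-1+ cells and 71.4 and 17.6 FPKM in HE1, a wide gap between the HE1 libraries. Calls ended for Pkm without Flk-1+ 1 or HE1 0 or 1 (adjusted p up to 0.116) and Tpi1 without Flk-1+ 1 or 2 or HE1 0 or 1 (adjusted p up to 0.211), which left 2 falls without either HE1 library or Flk-1+ 1. Quantile normalisation gave 7 falls and length scaling 5.

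Subunits of oxidative phosphorylation (69 tested), cytosolic ribosomal proteins (52) and the mitochondrial genome (5 loci) gave no call with limma in either direction. An unadjusted limma p below 0.05 was met by 8, 9 and 1 of them, against 3255 of all 11990 genes tested. Cox6b2 and Rps10 had an adjusted p below 0.05 (0.0213 and 0.0113) but stayed below the 10 FPKM that a call needs. The median differences were 0.16, -0.34 and 0.43, of which the first turned to -0.21 and -0.16 under quantile and common-median scaling. Under these scalings 1 and 2 ribosomal protein genes were called lower. Atp5b and Atp5a1, which encode subunits of ATP synthase, were at 243, 349.9 and 276 and 73.9, 112 and 114 FPKM in Flk-1+ cells and 226 and 221 and 99.9 and 101 FPKM in HE1. Rpl4 was at 248, 923 and 581 FPKM in Flk-1+ cells and 254 and 287 FPKM in HE1, with Flk-1+ library 0 below both HE1 libraries and the others above them, and Rpl41 was at 261, 807 and 389.7 FPKM in Flk-1+ cells and 339.7 and 264 FPKM in HE1. Of 35 tested cell cycle genes Mki67, the proliferation marker Ki-67, rose from 174, 103 and 114 FPKM to 369.9 and 308 FPKM (log2 difference 1.4 ± 0.34, adjusted p = 0.0169). Mki67 lost this call under quantile, common-median and length scaling (adjusted p = 0.0514, 0.0693 and 0.211), and the call was also lost for Mki67 without Flk-1+ 1 or 2 or HE1 0 or 1 (adjusted p up to 0.149). Each of these scalings gave no rise and 1 fall among the cell cycle genes. Cdk4, the G1 kinase, and the replication helicase gene Mcm3 were at 168, 90.5 and 104 and 119, 70.2 and 49 FPKM in Flk-1+ cells and 143 and 109.6 and 83.4 and 81 FPKM in HE1, with overlapping libraries.

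Enzymes of DNA methylation moved in both directions, 2 of 9 up and 1 down. Tet3, a dioxygenase that oxidises methylcytosine, was at 11.1, 6.42 and 6.78 FPKM in Flk-1+ cells and 42.4 and 41.3 FPKM in HE1 (log2 difference 2.27 ± 0.40, adjusted p = 0.00254). Tet2, its relative, went from 12.4, 16.3 and 10.5 FPKM to 88.3 and 35.4 FPKM, and Dnmt3b, a de novo methyltransferase, fell from 31.3, 23 and 18.8 FPKM to 7.95 and 8.58 FPKM (log2 difference -1.42 ± 0.35, adjusted p = 0.0173). The maintenance enzyme gene Dnmt1 was at 56.8, 57.2 and 40.3 FPKM in Flk-1+ cells and 63.3 and 61.2 FPKM in HE1, and its cofactor gene Uhrf1 was at 72.5, 65.9 and 45.9 FPKM in Flk-1+ cells and 82.2 and 56.1 FPKM in HE1, with no call. Calls ended for Tet2 without Flk-1+ 2 or HE1 0 (adjusted p up to 0.254) and Dnmt3b without HE1 0 or 1 (adjusted p up to 0.124), and under the length scaling that of Tet2 did (0.131).

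Imprinted genes, which are expressed from 1 parental allele and of which many act on growth, rose in 6 of 17 (35.3%) tested members and fell in 2. Mest was at 117, 62.8 and 102 FPKM in Flk-1+ cells and 1373 and 1374 FPKM in HE1 (log2 difference 3.9 ± 0.37, adjusted p = 3.71e-05). Igf2, insulin-like growth factor 2, was at 396, 209.7 and 127 FPKM in Flk-1+ cells and 2072 and 1512 FPKM in HE1 (log2 difference 3.0 ± 0.68, adjusted p = 0.0117), and its clearing receptor Igf2r rose from 40.3, 15.9 and 15.5 FPKM to 155 and 128 FPKM. Plagl1, a zinc finger gene of the imprinted network, was at 1.81, 1.19 and 1.22 FPKM in Flk-1+ cells and 39.9 and 50.6 FPKM in HE1 (log2 difference 4.26 ± 0.58, adjusted p = 0.000459). Mest, Igf2, Peg3 and Peg10 were among the most abundant of the called mRNAs in HE1, with Peg10 at 4588 and 3912 FPKM. The falls were Phlda2, which restrains placental growth, at 35.2, 19.7 and 12 FPKM in Flk-1+ cells and listed at 0 in HE1 (adjusted p = 0.0263), and Nnat, from 14.6, 8.47 and 7.07 FPKM to 0 and 2.48 FPKM. Grb10, an inhibitor of insulin signalling, was at 119, 12.5 and 14.4 FPKM in Flk-1+ cells and 167 and 166 FPKM in HE1 (adjusted p = 0.0557), where Flk-1+ library 0 stood apart from the other Flk-1+ libraries, and Slc38a4 was at 135, 45.6 and 55.6 FPKM in Flk-1+ cells and 53.1 and 59.7 FPKM in HE1. Calls ended for Igf2 without HE1 0 or 1 (adjusted p up to 0.12), Peg3 without Flk-1+ 1 or 2 or HE1 0 or 1 (adjusted p up to 0.144), Peg10 without Flk-1+ 1 or 2 or HE1 0 or 1 (adjusted p up to 0.149), Phlda2 without Flk-1+ 0 or 1 or HE1 0 or 1 (adjusted p up to 0.151) and Nnat without Flk-1+ 0 or 1 or HE1 0 (adjusted p up to 0.286), which left 3 rises without either HE1 library and no fall without Flk-1+ 0, Flk-1+ 1 or HE1 0. Calls also ended for Peg3 under quantile, common-median and length scaling (adjusted p up to 0.291) and Phlda2 under length scaling (adjusted p = 0.0844), and for Nnat under length scaling, so that the length scaling gave 5 rises and no fall.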

How the data were processed

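RNAseq libraries were made by the authors from polyadenylated RNA with a stranded kit. The authors aligned reads to the mouse genome (mm10, GRCm38) with TopHat2 2.0.9, assembled transcripts with Cufflinks 2.0.0 and compared conditions with Cuffdiff 2.0.1 (names and versions from the submitters' processing notes). The deposited FPKM values are per gene and library, as Cuffnorm scaled them by fragments and transcript length. The pooled FPKM per condition and the comparison table of the authors, which holds their fold changes with p- and q-values, were not used for any result. All per-library columns could be assigned to a genotype and stage, so 0 were left out. Column names number the libraries, but nothing states that equal numbers pair the stages, and deviations of equally numbered libraries were uncorrelated (0.05 and -0.02). The labels do not say that the libraries are separate cultures, and the study calls them biological replicates, so p-values measure the spread between these libraries.

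Tested genes had a locus above 200 bp and reached 1 FPKM in 2 or more of the 5 WT libraries. R 4.3.3 with limma 3.58.1 (trend option) modelled log2(FPKM + 1) in all 13 libraries together, with genotype and stage as 1 factor, and p-values of WT HE1 against WT Flk-1+ cells were adjusted by Benjamini-Hochberg over all genes tested. A gene was called where its adjusted p was under 0.05 and either stage averaged over 10 FPKM. The fit was tested on simulated data. Exact permutation tests were two-sided, by doubling the smaller tail. Tables and plots were made in Python 3.11.15 (pandas 2.3.3 and numpy 2.4.6 for tables, matplotlib 3.10.9 for plots, scipy 1.17.1 for exact tests). The comparison, the gene lists and the rule for named genes were chosen with earlier results of these data known. Named were the sorted proteins, the 10 largest rises and falls among called genes with a name of their own, from each list up to 3 called members in each direction and the 2 uncalled members with the highest mean FPKM, factors the study names, and listed transcription factors with at least 10 FPKM in a library. Further list members were named after their values were seen. A list counts only genes with a locus of their own, and 673 tested loci carry several symbols. Exonic lengths came from the GENCODE annotation of GRCm38.p6, as the bases covered by all exons of a gene. Alternatives were another pseudocount, other filters, no FPKM criterion, quantile, common-median and length scaling, a fit of the 5 WT libraries, a fit without the Lmo2-/- HE1 libraries, the replicate number as a block, array weights, no trend, only genes with a single exonic length, and each WT library left out in turn. The length scaling and the fit of genes with a single exonic length were chosen after seeing the data. ChIP and DNase data were not used here, and a few list members are not reported here.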

Additional observations from a re-analysis of the deposited data

How the results depend on the processing

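The number of calls was 1026 in the comparison as reported. It ranged from 355 to 1203 when a WT library was left out, with 291 to 1037 rises and 64 to 166 falls, and the lowest values came without HE1 library 0. Rises made up 80.6% to 86.2% of calls in these fits. Array weights gave 1768 calls, 1486 higher and 282 lower. Common-median scaling gave 544 higher and 244 lower (69.0% rises), quantile normalisation 505 and 297 (63.0%), and the length scaling 668 calls, 451 higher and 217 lower (67.5%). Without the FPKM criterion 343 genes were lower. The cause of these shifts was not tested, except that fewer samples or a dropped criterion change the count by construction. All other settings kept the counts within 1.5 times. The replicate number as a block gave 752 calls, 637 higher and 115 lower. None of the 183 called genes of the lists and named sets reversed in any setting, and 101 of them were still called without HE1 library 0, 110 without HE1 library 1 and 147 under the length scaling. The files give no fragment counts, and genes listed at 0 may lie below what a library could detect.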
